A study of Mus musculus with 9 samples.

Results

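The core circadian clock loop was described in the liver of rats that drank fructose. It was taken as 10 genes found by their symbols in the count table, Arntl (also known as Bmal1), Clock, Npas2, Per1, Per2, Per3, Cry1, Cry2, Nr1d1 and Nr1d2, out of 19686 genes listed. Hepatic RNA of 9 male Wistar rats was sequenced after enrichment of mRNA, with 3 rats in each of 3 groups. The control group drank purified water and was gavaged with saline, the model group drank 15% fructose and was gavaged with saline, and the DSS group drank 15% fructose and was gavaged with an extract of the herbal formula Danggui-Shaoyao-San at 1.8 g/kg, all for 8 weeks. The labels call the last group DSS. By the methods of the study, transcriptomics was limited to the extract made with diluted methanol (HME), and not the ones made with water or with undiluted methanol, so the DSS libraries are taken to be of HME. The study kept more rats in a group than the 3 sequenced here, and how these were picked is not given in the sources used here, nor is the age of the rats or whether RNA of several rats was pooled. The organism field of the labels names the mouse, but the strain is the Wistar rat and all gene identifiers are those of the rat.

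All rats were held in a cycle of 12 h dark and 12 h light and were fasted for 12 h before they were killed under chloral hydrate. Counting did not use strand, so antisense reads within the exons of a clock gene cannot be told apart from its own reads. The hour of killing, and whether it was the same for the 3 groups, is not given in the sources used here. A difference between groups in the state of the clock and a difference in the hour of killing therefore cannot be told apart in any of the levels below.

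The clock of a liver cell is a loop of transcription and repression. CLOCK, or its paralog NPAS2, pairs with BMAL1, the product of Arntl, and switches on the Per and Cry genes and Nr1d1 and Nr1d2. PER and CRY proteins then block that pair, while the nuclear receptors REV-ERB alpha and beta, made from Nr1d1 and Nr1d2, repress Arntl, Npas2 and Cry1. In the liver of nocturnal rodents the RNA of Arntl and Npas2 is known to peak around the end of the night, that of Nr1d1 during the day, that of Per2 around and after dusk, and that of Cry1 later in the night. Food intake, fasting and glucocorticoids are known to shift this order in the liver.

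The control libraries held 14345819 to 21978523 counts in all, those of the model group 14922429 to 26837227 and those of the DSS group 18331311 to 21180914. Levels are given as CPM, in which counts are divided by the size of each library after TMM normalization and scaled to the usual CPM unit, and no levels are compared between genes, since they are not scaled to length. On the second principal component, with 22.3% of the variance, model replicate 1 stood at -61.3 and the other 8 rats between -18.3 and 20.8. All 7 hepatocyte markers looked for (such as Alb and Ttr) were detected, with a summed level of 136100 to 172900 CPM in the control, 172000 to 220000 CPM in the model and 169100 to 213800 CPM in the DSS group. The 8 markers of Kupffer cells and other leukocytes summed to 188 to 452, 142 to 304 and 207 to 280 CPM, and the 5 endothelial markers in the table to 137 to 226, 92.3 to 257 and 142 to 190 CPM. The 6 markers of stellate cells summed to 262 to 295, 190 to 301 and 246 to 358 CPM, the 4 of bile duct cells to 14.9 to 21.7, 13.5 to 27.8 and 18.9 to 21.6 CPM, and the 4 of red blood cells to 436 to 1183, 391 to 607 and 359 to 726 CPM. The 4 markers of proliferating cells were at 3.09 to 6.47, 5.55 to 12 and 0.921 to 3.95 CPM, so that the DSS group lay below the model group. Of 4 pancreas and 4 intestine markers, 2 each were in the table, with sums of 13.0 to 28.1 CPM and at most 1.33 CPM over the 9 rats, and Cpa1 was at 0 in the model and DSS groups. The bile duct marker Krt7 was at 0 in the DSS group. The part of these cell types in the clock gene levels was not tested.

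Compared with the control group, Per2 was lower in the model group and Per2 and Cry1 were lower and Npas2 higher in the DSS group past both thresholds of the study. These ask for a log2 fold change of 0.5 or more in either direction and for an FDR, adjusted by Benjamini-Hochberg, no higher than 0.01. In the model group 1 of the 10 clock genes passed with edgeR's quasi-likelihood test, where 0.0801% of all 12486 genes tested did. In the DSS group against control 3 of 10 passed, where 1.48% of all genes did. At an FDR of 0.05 these counts were 2 and 5 of 10, where 0.601% and 6.36% of all genes passed. Between the DSS and model groups 0 of 10 passed with edgeR, where 0.136% of all genes did, and 0 of 10 at an FDR of 0.05, where 0.456% did. There 3 clock genes, Arntl, Npas2 and Cry1, had an unadjusted p under 0.05 (8.02% of all genes), and DESeq2 called 2, Npas2 and Cry1. Against control 7 of 10 clock genes had such a p in the model group (13.2% of all genes) and 7 of 10 in the DSS group (24.3%). These 3 comparisons share libraries, so their counts are not independent of each other. In bulk tissue fewer cells with an RNA and less RNA per cell cannot be told apart.

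In one test of all 9 rats for any difference among the 3 groups, Per2, Npas2 and Cry1 passed an FDR of 0.01, with values of 1.83e-05, 0.00248 and 0.00311 from edgeR, where 0.76% of the 12897 genes tested passed. Per2 had the lowest p of all genes in that test. Nr1d1 followed with an FDR of 0.0332, so that 4 of 10 clock genes reached 0.05, where 2.99% of all genes did. Cry1 lost this call without any 1 of the control rats or without DSS replicate 2 or 3 (FDR 0.0107 to 0.0184), and Npas2 without control replicate 1 or 3 (FDR 0.0132 and 0.0109). Per2 kept it, and Nr1d1 gained it without model replicate 2 (FDR 0.00964).

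**Figure D1:**
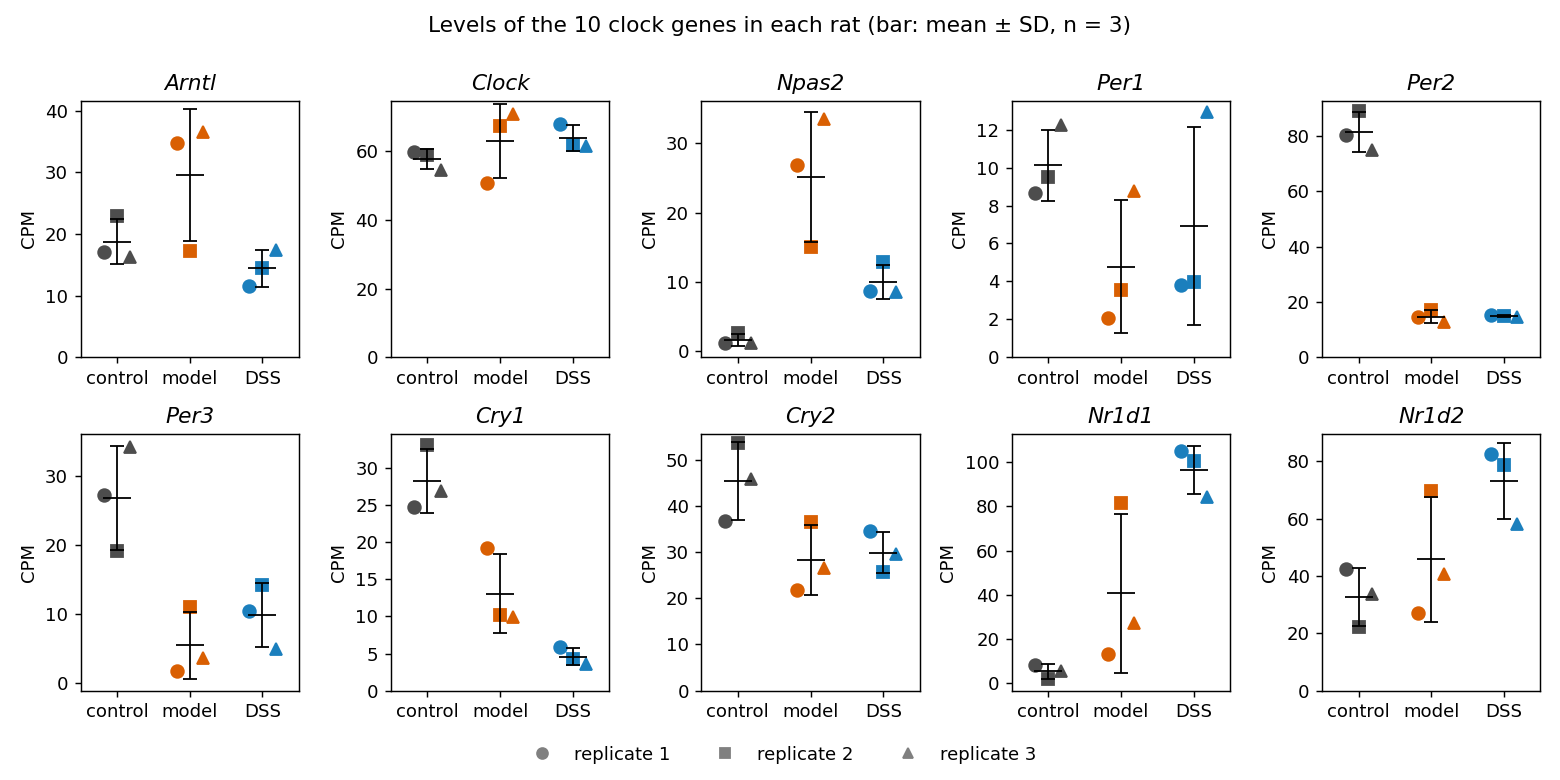
Level of each clock gene in CPM (vertical axis, linear and separate for each gene) in the 9 rats, with control in grey, model in orange and DSS in blue, the marker shape giving the replicate number and the bar the mean ± SD of 3 rats. Per2 lies at 74.9 to 89.0 CPM in the control rats and at 12.6 to 17.0 CPM in the rats that drank fructose. Model replicate 2 (orange square) stands near the DSS rats for Nr1d1 and Nr1d2, and for Arntl within the ranges of both other groups.

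Among the activators, Arntl (ENSRNOG00000014448), which encodes BMAL1, was at 17.1, 22.9 and 16.2 CPM in control replicates 1 to 3, at 34.8, 17.3 and 36.6 CPM in model replicates 1 to 3, and at 11.5, 14.4 and 17.4 CPM in DSS replicates 1 to 3. Model replicates 1 and 3 were above all other rats, while model replicate 2 lay within the ranges of both other groups, so no pair of groups was separated. The model group against control had a log2 fold change of 0.66 (FDR 0.382 from edgeR, with 0.289 as its standard error, SE), and the DSS group against model one of -1.03 (SE 0.296, FDR 0.369). Against control the DSS group was at -0.38 (FDR 0.248). Without model replicate 2 the first of these was 0.92 (FDR 0.0836) and the second -1.30 (FDR 0.0479).

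Clock (ENSRNOG00000002175), the partner of BMAL1, varied least of the 10 genes. It was at 59.8, 58.9 and 54.4 CPM in the control, 50.8, 67.4 and 70.7 CPM in the model and 68.1, 61.9 and 61.4 CPM in the DSS rats. The highest rat was 1.39 times the lowest, and 16.3% of 8868 genes with a mean of at least 5 CPM had a narrower range over the 9 rats. Its log2 fold changes were 0.12, 0.02 and 0.14 in the model group against control, the DSS group against model and the DSS group against control (FDR 0.77, 0.978 and 0.419 from edgeR). The DSS rats lay above the control rats without overlap, and the difference did not pass.

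Npas2 (ENSRNOG00000013408), the paralog that can take the place of CLOCK, was nearly silent in the control liver. It was at 1.20, 2.62 and 1.20 CPM there, from 30, 44 and 18 counts. The model rats were at 26.9, 15.02 and 33.5 CPM and the DSS rats at 8.72, 12.8 and 8.53 CPM, so that the 3 groups did not overlap and the DSS rats lay between the other groups. In the DSS group Npas2 rose 6.01-fold against control, a log2 fold change of 2.59 (SE 0.327, FDR 0.00373 from edgeR). Without control replicate 1 or 3 or DSS replicate 1 or 3, this FDR was between 0.0115 and 0.0185 and the call was lost. In the model group the level was 15.1 times that of the control group, a log2 fold change of 3.92 (SE 0.414), and the FDR of 0.0111 missed the threshold by little. It was 0.00271 with all 9 libraries in one fit and 0.00588 without model replicate 2, but 0.027 to 0.0525 without any 1 of the other 5 rats. With no filter on low counts it was 0.00377, and with a replicate block 0.0881. DESeq2 gave an FDR of 1.72e-20. Between the DSS and model groups the log2 fold change was -1.32 (SE 0.309, FDR 0.202 from edgeR).

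Of the Period genes, which encode the repressors that partner CRY, Per2 (ENSRNOG00000020254) gave the most uniform groups. It was at 80.4, 89.0 and 74.9 CPM in the control, 14.5, 17.0 and 12.6 CPM in the model and 15.3, 14.8 and 14.4 CPM in the DSS rats. All 6 rats that drank fructose lay far below the control rats and among themselves they overlapped. Per2 fell in the DSS group against control by 2.46 on the log2 scale, a level 5.51 times lower (SE 0.107, FDR 1.87e-05 from edgeR), and it had the lowest p of all 12633 genes tested there. It also fell by 2.48 in the model group (SE 0.155, FDR 0.00176). That call was lost without any 1 of the control rats, where 0 of all genes were called with edgeR, at an FDR of 0.0117 to 0.0234, although the log2 fold change stayed between -2.53 and -2.40. Between the DSS and model groups the log2 fold change was 0.02 (SE 0.161, FDR 0.979).

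Per3 (ENSRNOG00000018413) was at 27.2, 19.1 and 34.1 CPM in the control, 1.85, 10.97 and 3.63 CPM in the model and 10.5, 14.2 and 5.05 CPM in the DSS rats. All control rats were above all other rats, and the model and DSS rats overlapped. The log2 fold change against control was -2.32 in the model group (SE 0.57, FDR 0.132 from edgeR) and -1.44 in the DSS group (SE 0.397, FDR 0.0863), so neither passed with edgeR. Without model replicate 2 the former was -3.32. DESeq2 called the latter, at an FDR of 0.000385.

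Per1 (ENSRNOG00000007387), which glucocorticoids are also known to induce, had 1 rat apart in both groups that drank fructose. It was at 8.63, 9.51 and 12.2 CPM in the control, 2.06, 3.53 and 8.74 CPM in the model and 3.79, 3.99 and 13.0 CPM in the DSS rats. Model replicate 3 reached the lowest control rat, and DSS replicate 3 was the highest of all 9. Replicate 3 was the highest of the control group as well. The log2 fold changes were -1.10 in the model group against control (FDR 0.373 from edgeR), 0.54 in the DSS group against model (FDR 0.888) and -0.55 in the DSS group against control (FDR 0.57). Without model replicate 3 the first was -1.87 (FDR 0.0818). Without DSS replicate 3 the second turned to -0.28 and the third became -1.36 (FDR 0.0155).

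Cry1 (ENSRNOG00000006622), the stronger repressor of the cryptochrome pair, stepped down from group to group. It was at 24.8, 33.1 and 26.98 CPM in the control, 19.2, 10.1 and 9.91 CPM in the model and 5.90, 4.26 and 3.64 CPM in the DSS rats, and the 3 groups did not overlap. Cry1 fell in the DSS group against control by 2.63 on the log2 scale, to a level 6.17 times lower (SE 0.201, FDR 0.000289 from edgeR), and this call held with each rat left out (FDR 0.000411 to 0.00224). In the model group against control the log2 fold change was -1.10 (SE 0.277, FDR 0.132), and in the DSS group against model it was -1.51 (SE 0.32, FDR 0.141). Neither passed with edgeR, while DESeq2 called both, at an FDR of 0.0089 and 0.00117.

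Cry2 (ENSRNOG00000007478), its paralog, was at 36.8, 53.7 and 45.9 CPM in the control, 21.8, 36.5 and 26.5 CPM in the model and 34.5, 25.7 and 29.5 CPM in the DSS rats. The control rats were above all others, with the highest model rat at 36.5 CPM next to the lowest control rat at 36.8 CPM. The log2 fold changes against control were -0.69 in the model group (SE 0.217, FDR 0.225 from edgeR) and -0.61 in the DSS group (SE 0.164, FDR 0.058). Between the DSS and model groups it was 0.09 (FDR 0.947).

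Of the REV-ERB genes, neither passed both thresholds with edgeR in any comparison. Nr1d1 (ENSRNOG00000009329), which encodes REV-ERB alpha, was at 8.55, 2.02 and 5.65 CPM in the control, 13.2, 81.5 and 27.3 CPM in the model and 105, 101 and 84.4 CPM in the DSS rats. The groups did not overlap, but model replicate 2 stood just below the lowest DSS rat while model replicate 1 stood near the highest control rat. Over the 9 rats the highest was 51.9 times the lowest, the widest range of the 10 clock genes, and 99.8% of the genes compared had a narrower one. The level in the DSS group was 17.4 times that of the control group, a log2 fold change of 4.12 (SE 0.474), and its FDR of 0.0111 from edgeR did not pass. Without control replicate 1 or 2 it passed, at 0.01 and 0.000147, and without any 1 of the other 4 rats it was 0.0306 to 0.0507. DESeq2 gave 5.87e-12. The model group against control had a log2 fold change of 2.88 (SE 0.721, FDR 0.137) and the DSS group against model one of 1.26 (SE 0.553, FDR 0.626). Without model replicate 2 these were 1.88 and 2.26.

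Nr1d2 (ENSRNOG00000046912), which encodes REV-ERB beta, followed with a smaller span. It was at 42.4, 22.2 and 33.8 CPM in the control, 26.97, 69.7 and 40.8 CPM in the model and 82.6, 78.7 and 58.0 CPM in the DSS rats. The DSS rats were above the control rats, and the model rats overlapped both groups. In the DSS group against control the log2 fold change was 1.15 (SE 0.241, FDR 0.0351 from edgeR), and DESeq2 called it, at an FDR of 3.5e-05. The log2 fold change from edgeR was 0.47 in the model group against control (FDR 0.611) and 0.69 in the DSS group against model (FDR 0.67). Without model replicate 2 the former was 0.04.

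Between the model and control groups the median absolute log2 fold change was 1.10 over the 10 clock genes and 0.223 over all genes tested. Of the 10 genes, 6 had a log2 fold change of 1 or more in either direction, where 3.89% of all genes did. The rats of these groups did not overlap in 6 of the 10, with Npas2 and Nr1d1 higher and Per2, Per3, Cry1 and Cry2 lower in the model group, where 21.1% of all genes did not overlap (11.2% higher and 9.86% lower). In the DSS group against control the median absolute log2 fold change was 1.30 against 0.238 over all genes, and 8 of 10 genes did not overlap, 4 higher and 4 lower, where 30% of all genes did not (15.1% higher and 14.9% lower). There 6 of 10 had a log2 fold change of 1 or more in either direction, where 5.43% of all genes did. Between the DSS and model groups it was 0.784 against 0.184, and 3 of 10 genes did not overlap, where 13.9% of all genes did not (6.22% higher and 7.69% lower). A log2 fold change of that size was seen in 4 of 10, where 3.15% of all genes had one. These 3 were Nr1d1, higher in the DSS group, and Npas2 and Cry1, lower.

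**Figure D2:**
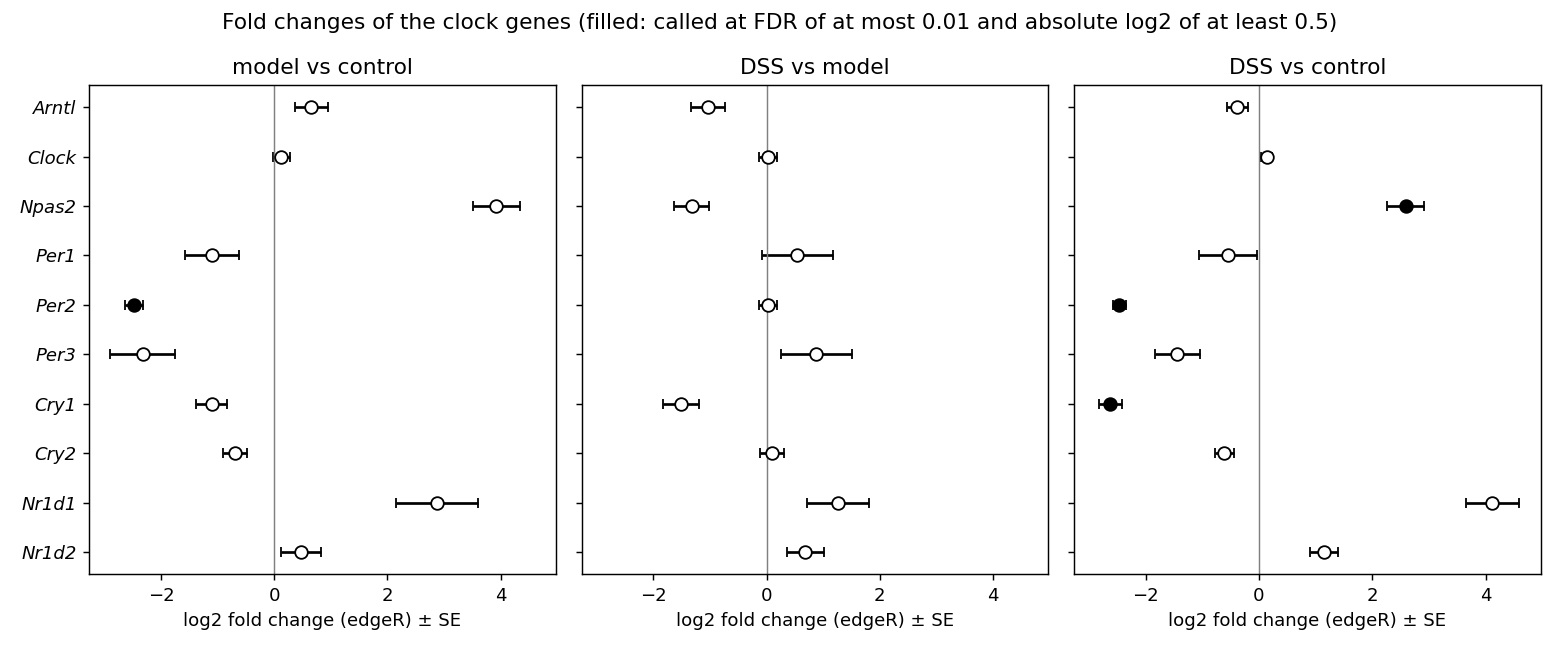
Log2 fold change of each clock gene (horizontal axis) with its SE from edgeR, in the 3 comparisons, filled where both thresholds were passed. Per2 sits near -2.5 against control in both groups that drank fructose and at 0.02 between them, while Cry1 and Nr1d1 lie further from 0 in the DSS group than in the model group.

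The order of the clock genes within a rat was read from ratios of read counts, in which the scaling of the library cancels. A ratio also holds the lengths of both transcripts, so that 1 ratio is compared only across rats and no test was made on the ratios. The ratio of Cry1 to Nr1d1 had the widest span. On the log2 scale it was 1.53, 4.03 and 2.26 in the control, 0.54, -3.01 and -1.46 in the model and -4.15, -4.56 and -4.53 in the DSS rats, with no overlap between groups. The DSS rats were the most alike in it, and the model rats lay between both other groups.

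The ratio of Arntl to Per2, a gene of the activating pair over its target, split the control rats from the rest. It was -2.23, -1.96 and -2.21 in the control, 1.27, 0.02 and 1.54 in the model and -0.41, -0.04 and 0.27 in the DSS rats on the log2 scale. Model replicate 2 lay within the DSS range. The ratio of Arntl to Nr1d1, a gene over its own repressor, was 1, 3.50 and 1.52 in the control, 1.39, -2.24 and 0.42 in the model and -3.19, -2.81 and -2.28 in the DSS rats. Here model replicate 1 lay within the control range and model replicate 2 just above the highest DSS rat. The ratio of Npas2 to Nr1d1 was -2.83, 0.37 and -2.24 in the control, 1.02, -2.44 and 0.30 in the model and -3.59, -2.97 and -3.31 in the DSS rats. All DSS rats were below all others in that ratio, and control replicate 2 stood with model replicates 1 and 3.

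Among pairs of paralogs, the ratio of Clock to Npas2 was 5.63, 4.49 and 5.51 in the control, 0.92, 2.17 and 1.08 in the model and 2.96, 2.27 and 2.85 in the DSS rats on the log2 scale. It was the only one of these ratios in which the DSS rats lay between both other groups without overlap. The ratio of Nr1d1 to Nr1d2 was -2.31, -3.46 and -2.58 in the control, -1.03, 0.23 and -0.58 in the model and 0.34, 0.35 and 0.54 in the DSS rats. That of Cry1 to Cry2 was -0.57, -0.70 and -0.77 in the control, -0.18, -1.85 and -1.42 in the model and -2.55, -2.59 and -3.02 in the DSS rats. In the former the 3 groups were separate, with the DSS rats highest. In the latter the DSS rats were below all others, with overlap between control and model rats.

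The ratio of Cry1 to Per2, whose proteins act together as repressors, set the model group apart. It was -1.70, -1.43 and -1.47 in the control, 0.41, -0.75 and -0.34 in the model and -1.37, -1.80 and -1.98 in the DSS rats on the log2 scale. All 3 model rats were above all others, and the control and DSS rats overlapped although both genes were several times lower in the DSS group. The ratio of Per1 to Per2 was -3.22, -3.23 and -2.61 in the control, -2.81, -2.27 and -0.52 in the model and -2.01, -1.89 and -0.15 in the DSS rats. This ratio was highest in replicate 3 of each group, control included. That of Arntl to Per3 was -0.67, 0.26 and -1.07 in the control, 4.23, 0.65 and 3.33 in the model and 0.14, 0.02 and 1.79 in the DSS rats.

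**Figure D3:**
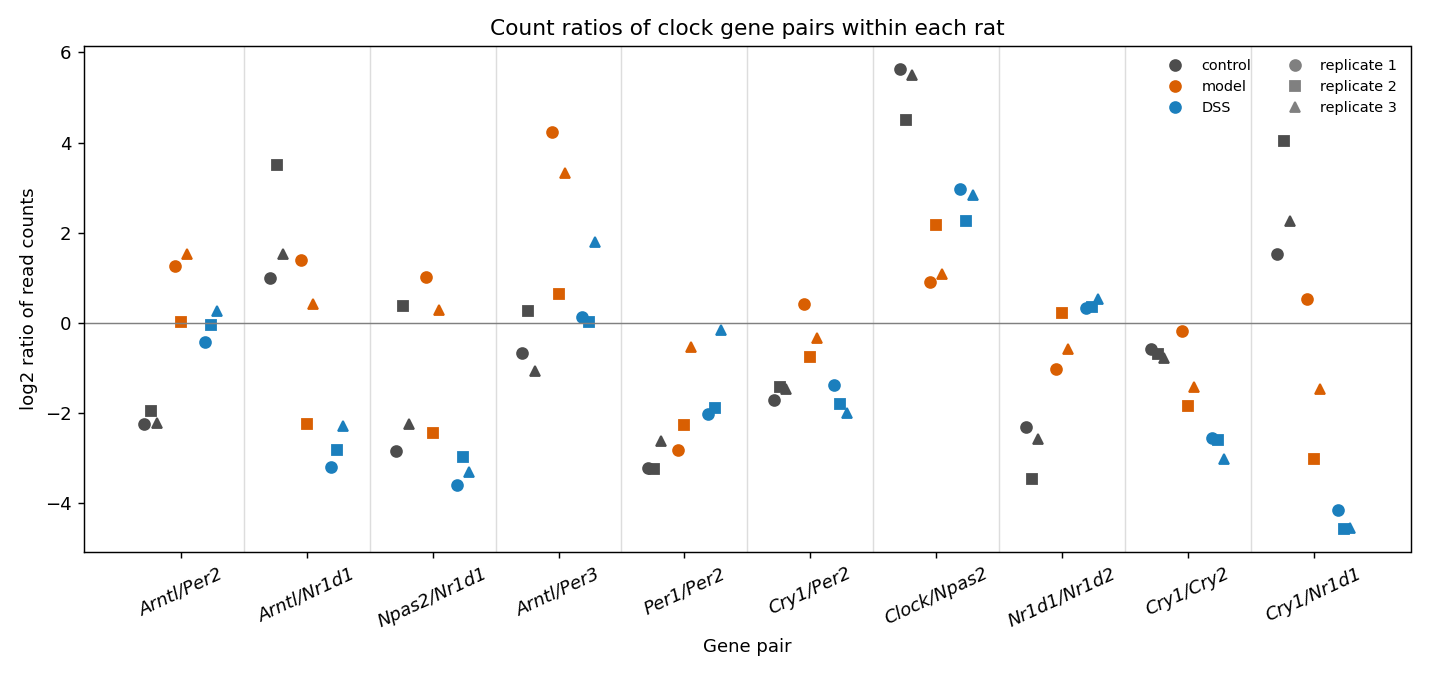
Log2 ratio of the read counts of 2 clock genes within each rat (vertical axis) for 10 gene pairs, with control in grey, model in orange and DSS in blue and the marker shape giving the replicate number. For Cry1/Nr1d1 the groups are separate, and for Cry1/Per2 the model rats are above both others.

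The model group had the largest SD relative to its mean of the 3 groups for 8 of the 10 clock genes, all but Npas2 and Per1. The SD of Nr1d1 was 88.6% of the mean in the model, 60.5% in the control and 11.2% in the DSS group, and for Per3 it was 88.2%, 28.0% and 46.6%. For Per2 it was 15.2%, 8.70% and 2.91%. In model replicate 2 Nr1d1, Nr1d2, Per2, Per3 and Cry2 were the highest of the model group and Arntl and Npas2 the lowest. Model replicate 1, which stood apart on the second principal component, was the lowest of all 9 rats in Clock, Per1, Per3 and Cry2. Without it 1 clock gene, Per2, was called in the model group against control, as with it.

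How alike 2 clock genes were is given as Pearson's r of their log2 CPM over the 9 rats, which holds the differences between groups, and again with group means removed, as a description. Nr1d1 and Nr1d2 had an r of 0.92 (Spearman's rho 0.9) and of 0.972 with group means removed, where the wide model group carries most of the spread. Over the 9 rats, 0.35% of the genes compared were more alike to Nr1d1 than Nr1d2 was. Cry1 and Nr1d1 had an r of -0.931 (rho -0.917) and of -0.637 with group means removed. Arntl had an r of -0.391 with Nr1d1 and of -0.669 with Nr1d2 over the 9 rats, and of -0.823 and -0.86 with group means removed. Of the genes compared, 77.3% and 94% were more alike to Arntl than these were over the 9 rats. Npas2 went the other way over the 9 rats, with an r of 0.588 with Nr1d1 and of 0.277 with Nr1d2. With group means removed its r was -0.782 and -0.674. Per2 and Nr1d1 had an r of -0.832 over the 9 rats and of 0.204 with group means removed. Per2 was alike to Cry2 (r 0.814), Cry1 (0.795) and Per3 (0.772) over the 9 rats, and with group means removed these were 0.577, 0.192 and 0.382. Over the 9 rats, 3.15%, 3.82% and 4.59% of the genes compared were more alike to Per2 than Cry2, Cry1 and Per3 were. Npas2 and Per2 had an r of -0.919 and of -0.232 with group means removed.

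**Figure D4:**
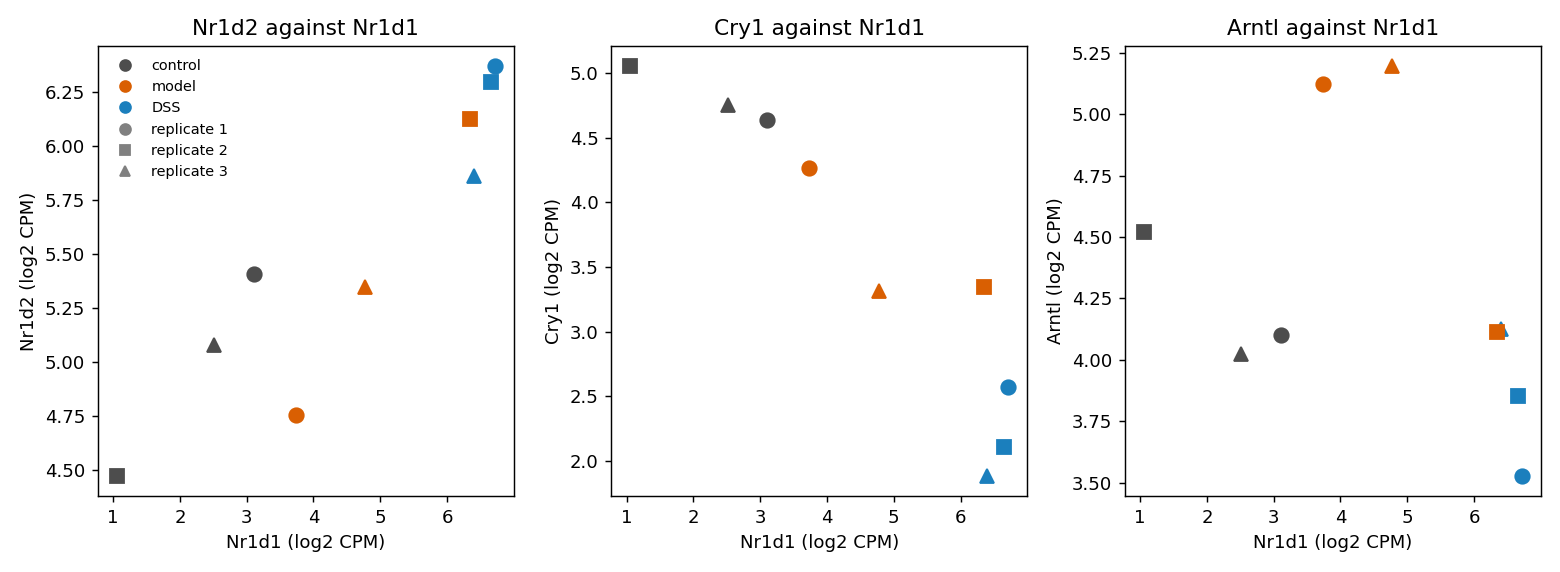
Log2 CPM of Nr1d2, Cry1 and Arntl (vertical axes) against that of Nr1d1 (horizontal axes) in the 9 rats, with control in grey, model in orange and DSS in blue. Nr1d2 is higher and Cry1 lower where Nr1d1 is higher, and Arntl is highest in model replicates 1 and 3, at intermediate Nr1d1.

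Among the 8867 other genes with a mean of at least 5 CPM, the 3 most alike to each clock gene over the 9 rats had an r between 0.911 and 0.993. The points share libraries and groups. For Arntl they were Acot3, Asb8 and Tubb2a, for Clock Zbtb42, Mertk and Arhgef11, and for Npas2 Gckr, Kynu and Znrf2. For Per1 they were Ambra1, Lrrc14 and Lrrc45, for Per2 Por, Parp3 and Ints11, and for Per3 Phlpp2, Adap2 and Tle4. For Cry1 they were Akt1, Mocs2 and Prmt3, for Cry2 Sardh, Plxnb1 and Nudc, for Nr1d1 Rnd3, Wdr81 and Tmem86a, and for Nr1d2 Ifnar1, Klhl24 and Rnf44. With group means removed, no clock gene was among the 3 most alike to another. The first of these for each, in the same order of clock genes, were Tor1b, Slco1a1, Atxn10, Bcor, Hs2st1, Numb, Cabp1, Cntrl, LOC688655 and Bmpr2, with an r between 0.967 and 0.995.

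Of 9 further genes linked to the clock, which are regulators of transcription apart from Timeless, 8 were in the table and 6, Timeless included, were tested. The median of their log2 fold changes was at -0.45 for the model group against control, -0.42 in the DSS group against model and -0.80 in the DSS group against control, where the median of all genes was within 0.01 of 0.

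Of 7 genes known as direct outputs of the loop, among them the PAR bZIP factors Dbp, Tef and Hlf, 2 were called lower in the model group against control, 0 in the DSS group against model, and 2 lower in the DSS group against control, where 0.0801%, 0.136% and 1.48% of all genes were called in either direction. At an FDR of 0.05 these were 3, 0 and 5, where 0.601%, 0.456% and 6.36% of all genes passed. Their median log2 fold change was -1.12, 0.29 and -1.22. Noct, which encodes the rhythmic NADP(H) phosphatase nocturnin, was at 22.9 CPM in the control, 2.41 CPM in the model and 1.95 CPM in the DSS group, with log2 fold changes against control of -3.22 (FDR 0.00417 from edgeR) and -3.55 (FDR 0.00106). Usp2, a ubiquitin-specific protease, was at 27.95, 5.001 and 6.07 CPM, with log2 fold changes of -2.50 (FDR 0.0085) and -2.20 (FDR 0.012). Wee1, a kinase that holds back mitosis, was at 11.6, 1.81 and 2.27 CPM, with -2.64 (FDR 0.033) and -2.36 (FDR 0.000969). For these 3 genes, as for Per2, all rats that drank fructose were below all control rats.

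Dbp, a target of the CLOCK and BMAL1 pair, is given here after its values were seen. It was at 28.3, 13.7 and 26.2 CPM in the control, 6.15, 53.7 and 4.62 CPM in the model and 49.1, 68.7 and 31.1 CPM in the DSS rats. Model replicate 2 stood with the DSS rats, as it did for Nr1d1, and the other 2 model rats below all others. Against control edgeR gave a log2 fold change of -0.10 for the model rats (FDR 0.971) and of 1.12 for the DSS rats (FDR 0.146).

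Of 13 kinases, ubiquitin ligases and a protease that act on PER, CRY or REV-ERB proteins, 0 were called with edgeR in any comparison. Of all genes 0.0801%, 0.136% and 1.48% were called. The medians of the 13 were -0.13, 0.18 and 0.03.

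Genes that respond to signals known to set the liver clock were counted in the same way. Of 7 glucocorticoid-responsive genes tested, 0 were called in any comparison with edgeR, where 0.0801%, 0.136% and 1.48% of all genes were called. Their medians were 0.23, 0.20 and 0.20. At an FDR of 0.05, Tsc22d3 was lower in the model group against control (log2 fold change -1.28, FDR 0.0449 from edgeR), where 0.601% of all genes passed. Of 11 fasting and feeding genes, 0 were called in the model group against control and in the DSS group against model, and 2 in the DSS group against control, where 1.48% of all genes were called. These were Cpt1a, the entry enzyme of mitochondrial fatty acid oxidation, at 105 and 309 CPM in the control and DSS groups (log2 fold change 1.55, FDR 0.000271), and Srebf1, a regulator of lipogenesis, at 676 and 211 CPM (log2 fold change -1.69, FDR 0.00244). At an FDR of 0.05, 2 more differences were seen between the DSS and model groups, where 0.456% of all genes passed, with Cpt1a at a log2 fold change of 1.30 (FDR 0.0273 from edgeR) and Angptl4, an inhibitor of lipoprotein lipase, at -2.05 (FDR 0.0496). Against control 3 genes of the list reached that FDR in the DSS group, where 6.36% of all genes did. Medians of that list were 0.48, -0.10 and -0.05.

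Of 8 immediate early genes 7 were tested, with medians of 0.79, -0.83 and 0.27. Of these 1, Junb, was called in the DSS group against control, where 1.48% of all genes were. Its level was 14.3, 19.0 and 14.4 CPM in the control and 57.8, 39.7 and 58.3 CPM in the DSS rats (log2 fold change 1.70, FDR 0.00183 from edgeR). In the model rats it was at 128, 138 and 18.2 CPM, with model replicate 3 near the control rats. At an FDR of 0.05, Fos was lower in the DSS group against model (log2 fold change -2.26, FDR 0.0434 from edgeR) and against control (-1.48, FDR 0.0499), at 0.532 CPM in the DSS, 2.59 CPM in the model and 1.502 CPM in the control group. At that FDR 0.456% and 6.36% of all genes passed in these comparisons. Fos was near the floor in the DSS rats, at 0.487, 0.432 and 0.676 CPM. Of 8 temperature-responsive genes, 2 were called lower in the DSS group against control, where 1.48% of all genes were called in either direction. They were the chaperones Hsph1 (149 and 56.0 CPM, log2 fold change -1.41, FDR 0.00313) and Hsp90aa1 (10.1 and 3.11 CPM, log2 fold change -1.71, FDR 0.00631). At an FDR of 0.05 these were 3 of 8, where 6.36% of all genes passed, with Hspa8 at -0.63 (FDR 0.0325 from edgeR). The medians of that list were -0.56, -0.31 and -1.02. The part of these signals in the clock gene levels was not tested.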

How the data were processed

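Liver RNA of 9 rats was sequenced, 3 in each group, and groups were taken from the sample labels. The authors aligned reads with HISAT2 to build Rnor_6.0 and counted them per gene with HTSeq 0.6.1 without regard to strand. The deposited values used here are those raw counts per gene. A second table, of predicted new transcripts, was not used, since the clock genes are annotated.

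Genes were filtered with filterByExpr, scaled by TMM and tested with the quasi-likelihood F test of edgeR 4.0.16 under R 4.3.3. Each fit used the 6 libraries of its comparison, or all 9 for the 3 groups, with Benjamini-Hochberg adjustment over all genes tested. Calls needed a log2 fold change of 0.5 or more in either direction and an FDR no higher than 0.01, as in the study, and in the test of 3 groups at the FDR alone. The standard error is the absolute log2 fold change over the square root of F. CPM used TMM sizes over the 9 libraries, and log2 CPM a prior count of 1. Groups overlap where any value of one lies within the range of the other.

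Named genes were the 10 clock genes, the 3 most alike to each with a mean of at least 5 CPM, and called genes of fixed lists. Some genes of these lists are not reported here. The clock genes and these lists were chosen with earlier results of these data known. The tests were tried on simulated data first. The alternatives were other scaling, no filter, DESeq2 1.42.0, all 9 libraries in one fit, a replicate block, an FDR of 0.05 and leaving out each rat. Libraries held 14345819 to 26837227 counts, and replicates of a group differed by more than counting noise. Each library is called a rat here. The labels do not say whether RNA was pooled or extracted apart, so p-values measure the spread between these samples, which may be technical in part. With 3 rats against 3, an exact permutation test of a single value cannot go below p = 0.1.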

Additional observations from a re-analysis of the deposited data

How the results depend on the processing

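The number of clock genes called in the model group against control, 1, was 2 with no filter on low counts, 3 with DESeq2, 2 with all 9 libraries in one fit, 2 at an FDR of 0.05 and 0 to 2 with each rat left out. In the DSS group against model, 0 became 2 with DESeq2 and stayed 0 with each rat left out. In the DSS group against control, 3 became 6 with DESeq2, 5 at an FDR of 0.05 and 2 to 4 with each rat left out. In the test of 3 groups 3 were called, and 1 to 4 with each rat left out. Over the genes that passed the filter, same-numbered rats did not deviate together (r between -0.223 and -0.021). Such an r over many genes cannot settle whether a single gene follows the numbers. Per1 was highest in replicate 3 of each group. With a replicate block 0 clock genes were called in the model group against control, 0 in the DSS group against model, 3 in the DSS group against control and 1 in the test of 3 groups. Over all genes, the 10, 17 and 187 called in the 3 comparisons were 256, 147 and 769 with DESeq2, 71, 38 and 489 with no filter, 0, 7 and 104 with the block, 75, 57 and 804 at an FDR of 0.05, and 0 to 10, 2 to 12 and 86 to 132 with each rat left out. Scaling by library size alone gave 11 in the DSS group against model, and all 9 libraries in one fit gave 25 in the model group and 113 in the DSS group against control. The 98 called among 3 groups were 676, 184, 20 and 385 with DESeq2, no filter, the block and an FDR of 0.05, and 41 to 125 with each rat left out. Clock in the model group against control turned to a log2 fold change of -0.0082 when scaled by library size alone. Between the DSS and model groups, log2 fold changes with each rat left out ran from -0.11 to 0.12 for Clock, from -0.068 to 0.31 for Cry2, from -0.071 to 0.14 for Per2 and from -0.28 to 1.33 for Per1. Of the log2 fold changes of clock genes under all alternatives, 332 kept direction and call, 12 gained a call, 8 lost one and 8 changed sign. The cause of these changes was not tested.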
